A study of Mus musculus with 8 samples.

Results

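The genes described here encode 10 secreted ligands of the VEGF, PDGF and angiopoietin families, chosen by name: Vegfa, Vegfb, Vegfc, Pdgfa, Pdgfb, Pdgfc, Angpt1, Angpt4, Angptl2 and Angptl4. The count table writes these symbols in capitals, as VEGFA, VEGFB, VEGFC, PDGFA, PDGFB, PDGFC, ANGPT1, ANGPT4, ANGPTL2 and ANGPTL4. All 10 had a row in a table of 13937 genes, and all 10 were among the 13509 genes that passed the filter on low counts. They were measured by RNA sequencing in 8 libraries of primary astrocytes grown from the brains of C57BL/6 mouse pups aged 1 day. The pups were wild type (WT) or lacked RGC-32, a cell cycle and TGF-β response protein encoded by Rgcc (RGC-32 KO, here KO). Cultures of each genotype were left untreated (control) or stimulated for 24 h with 10 ng/ml TGF-β, with 2 biological replicates in each of the 4 groups. All groups shared the culture in serum-containing medium, the shaking step that removed loosely attached cells and an overnight serum starvation, which for the stimulated cells preceded TGF-β. The labels name neither the TGF-β isoform nor how many pups went into a culture, and the WT mice were littermates according to the methods of the study.

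VEGF ligands act on the receptor tyrosine kinases Flt1, Kdr and Flt4 of blood and lymphatic endothelium, with the neuropilins as co-receptors. PDGF ligands are covalent dimers that act on Pdgfra and Pdgfrb, the receptors of oligodendrocyte precursors and of pericytes, and angiopoietins set the activity of the endothelial receptor Tek. Astrocytes touch most of the vessel surface of the brain with their endfeet and are a known source of such ligands in development and after injury, and TGF-β is a cytokine that drives the reactive state.

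The libraries held 14920561 to 18956038 counts each. Levels are given as CPM, a count divided by the normalized size of its library and scaled, and, where genes are compared with each other, as FPKM, which also corrects for the length of the transcript. A CPM of 1 stood for 14.9 to 18.1 counts. Rgcc itself was counted 80 and 94 times in WT control cells and 215 and 362 times in stimulated WT cells, against 61 and 28 times in KO control and 64 and 26 times in stimulated KO cells. Its level was lower in each KO library than in every WT library of the same treatment, although the WT against KO difference did not pass the threshold in control (adjusted p = 0.780) or TGF-β libraries (adjusted p = 0.133). Which part of the gene was deleted is not given in the labels, so reads from what remains of it cannot be told from wild-type reads. The astrocyte marker genes Gfap, Aqp4, Slc1a3 and Aldh1l1 had at least 2346 counts in every library.

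The first question was which of these ligand genes respond to TGF-β. TGF-β raised Vegfa, Vegfc, Pdgfb, Pdgfc, Angpt4 and Angptl2 in WT astrocytes, from 1.75-fold for Vegfc to 5.11-fold for Angpt4. The same 6 genes rose in KO astrocytes, from 2.08-fold for Pdgfb to 5.35-fold for Angpt4. None of these 10 genes fell past the threshold, although Vegfd and Angpt2, ligands of the same families outside the 10, did so in both genotypes. The threshold asked for 0.6 or more on the log2 scale in either direction and an adjusted p under 0.05 in edgeR's quasi-likelihood test. Vegfb was lower with TGF-β in both genotypes with an adjusted p under 0.05 but a fold change short of that limit, and Pdgfa, Angpt1 and Angptl4 did not pass the test. For comparison, 7.72% of all genes tested were higher and 5.65% lower with TGF-β in WT astrocytes, and 6.61% were higher and 4.93% lower in KO astrocytes. Among all calls in WT, 57.8% were increases, and this share was 44.8% with upper quartile normalization, which shifted the median of all genes by -0.09 on the log2 scale. In KO the share was 57.3%, and 45.5% with that normalization. In the tests reported here that median was -0.00 in WT and 0.00 in KO, and the median over the 10 ligand genes was 0.86 and 1.07. The 10 were chosen with earlier results of these data known, so these medians and counts only describe them. The 6 other ligands of the same families that were tested had medians of -0.24 in WT and -0.16 in KO.

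**Figure D1:**
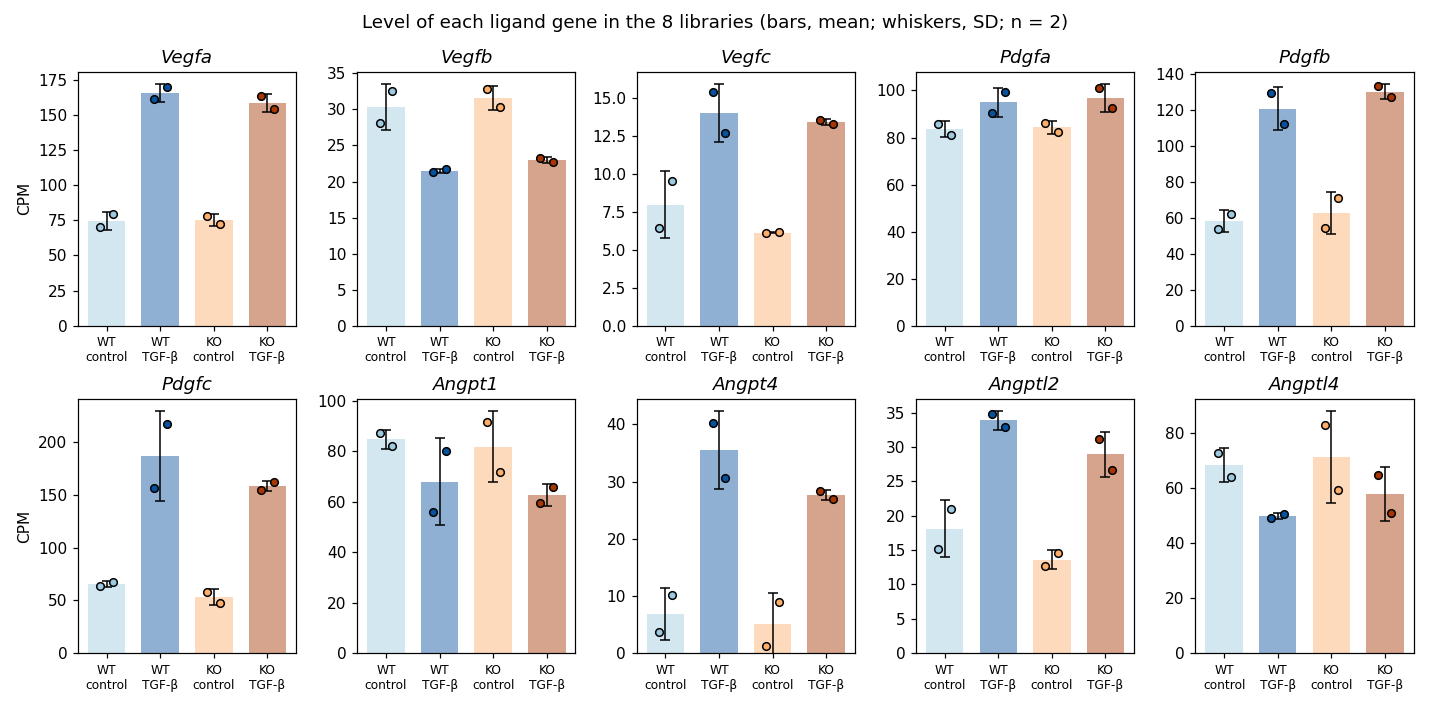
CPM (y axis, from 0) of the 10 ligand genes in the 4 groups (x axis), with each library as a point, the mean of 2 libraries as a bar and the SD as whiskers. The TGF-β libraries of Vegfa sit between 154 and 170 CPM and its control libraries between 70.2 and 79.1 CPM, whereas those of Pdgfa lie between 81.1 and 101 CPM in all groups.

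Vegfa encodes the main growth factor of blood vessels, which acts through Flt1 and Kdr. It lies at chr17:46016993-46032369 on the minus strand (GRCm38) with 8 protein-coding transcripts, whose reads the gene-level counts pool. Vegfa was at 70.2 and 79.1 CPM in WT control libraries and at 161 and 170 CPM in WT TGF-β libraries. In KO astrocytes it was at 78.2 and 72.2 CPM without and at 163 and 154 CPM with TGF-β. All 4 TGF-β libraries thus stood above all 4 controls, by a gap several times the distance between replicates. On the log2 scale the change was 1.15 in WT (SE 0.08, adjusted p = 0.000124) and 1.08 in KO (SE 0.08, adjusted p = 0.000189).

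Vegfb, at chr19:6982473-6987651 on the minus strand, encodes a ligand of Flt1 that is better known for effects on cell survival and fatty acid uptake than for vessel sprouting. It moved the other way. Its level was 28.1 and 32.6 CPM in WT control, 21.3 and 21.7 CPM in WT TGF-β, 32.8 and 30.4 CPM in KO control and 23.3 and 22.7 CPM in KO TGF-β. The control and TGF-β libraries did not overlap in either genotype. Its log2 change came to -0.50 in WT (SE 0.09, adjusted p = 0.00504) and -0.46 in KO (SE 0.09, adjusted p = 0.00839), so Vegfb was not counted among the genes past the threshold. On the FPKM values it was past the limit in both genotypes, at -0.63 and -0.67 with a pseudocount of 1, but that scaling also moved the median of all genes by -0.10.

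Vegfc encodes the ligand of Flt4 and growth factor of lymphatic vessels, and lies at chr8:54077606-54187096 on the plus strand. Of the 3 VEGF genes described it had the lowest CPM and FPKM, at 6.45 and 9.55 CPM in WT control and 6.12 and 6.16 CPM in KO control. With TGF-β it reached 15.4 and 12.7 CPM in WT and 13.6 and 13.3 CPM in KO. Both TGF-β groups lay above both control groups. With TGF-β the log2 difference was 0.81 in WT (SE 0.18, adjusted p = 0.0123) and 1.13 in KO (SE 0.19, adjusted p = 0.00451). In WT the call rested on replicate 1 of each group, since the value was 0.56 without WT control replicate 1, under the fold limit, and 0.67 without WT TGF-β replicate 1 (adjusted p = 0.0687, edgeR).

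The 250 bases before the annotated start of Vegfa and of Vegfb are shown because these neighbours in function moved in opposite directions. The letters were read from RefSeq promoter windows of GRCm38.p6, which cover 250 bases before and 50 after a start and were found for 7 of the 10 genes, with 9 windows since Vegfa and Pdgfa have 2 each. Pdgfb, Angpt1 and Angptl4 had no entry. The Vegfa stretch is chr17:46032378-46032627 and that of Vegfb chr19:6987652-6987901, both on the minus strand and written 5′ to 3′.
Vegfa: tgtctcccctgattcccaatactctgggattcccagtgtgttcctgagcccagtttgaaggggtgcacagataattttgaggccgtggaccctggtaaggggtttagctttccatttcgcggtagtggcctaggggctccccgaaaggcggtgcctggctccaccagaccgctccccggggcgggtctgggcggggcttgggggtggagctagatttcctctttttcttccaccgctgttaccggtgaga
Vegfb: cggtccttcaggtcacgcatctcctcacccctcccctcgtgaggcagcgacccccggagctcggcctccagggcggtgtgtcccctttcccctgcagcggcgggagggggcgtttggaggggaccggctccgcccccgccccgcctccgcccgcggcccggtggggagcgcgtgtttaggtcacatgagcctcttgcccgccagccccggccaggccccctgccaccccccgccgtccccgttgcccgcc
No letters are in capitals here because neither stretch held any of the motifs searched. These were CAGACA (the CAGA box to which SMAD factors of the TGF-β pathway bind), GTCTAGAC (a palindromic SMAD element), ACGTG (the core of the hypoxia response element), TGACTCA (the AP-1 site) and GGAATG (the site of TEAD factors), each on both strands. The G and C content of the whole window was 62.0% for Vegfa and 75.3% for Vegfb. The second Vegfa window, around an internal start, held CAGACA at positions -103 and -1 from that start and ACGTG at -211, all on the opposite strand.

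In per-length terms the VEGF ligand mixture changed its makeup. Vegfa made up 44.9% to 47.7% of the summed FPKM of Vegfa, Vegfb and Vegfc in the 4 control libraries and 65.2% to 69.4% in the 4 TGF-β libraries. The share of Vegfb was 45.8% to 49.6% in controls and 21.1% to 26.0% with TGF-β. Vegfa and Vegfb were therefore at nearly equal FPKM in control astrocytes, with means of 20.1 ± 1.24 and 19.8 ± 1.96 in WT (SD, n = 2), whereas with TGF-β Vegfa was at 39.6 ± 0.261 and Vegfb at 12.4 ± 0.655. Vegfc had the smallest share of the 3, 5.40% to 8.92% in controls and 8.81% to 11.1% with TGF-β. With the related genes Vegfd and Pgf added to the sum, the share of Vegfa was 38.2% to 39.4% in controls and 51.7% to 54.5% with TGF-β, and that of Vegfb 37.6% to 42.7% and 16.2% to 20.6%. Pgf then held 7.82% to 11.2% in controls and 17.4% to 21.4% with TGF-β.

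**Figure D2:**
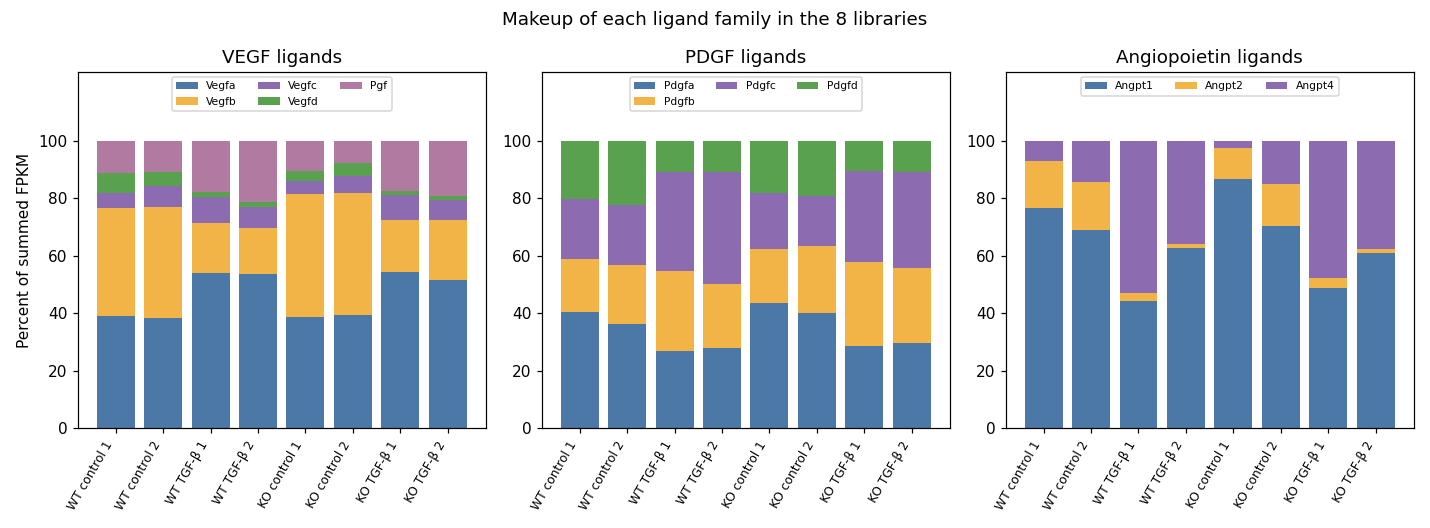
Share of each gene in a sum of FPKM (y axis, percent) in each of the 8 libraries (x axis), for Vegfa, Vegfb, Vegfc, Vegfd and Pgf, for Pdgfa, Pdgfb, Pdgfc and Pdgfd, and for Angpt1, Angpt2 and Angpt4. With TGF-β Vegfb holds 20.6% or less in place of 37.6% or more, Pdgfc 31.6% or more in place of 20.8% or less, and Angpt2 at most 3.31% in place of 11.0% or more.

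Pdgfa encodes the ligand of Pdgfra that supports oligodendrocyte precursors, and lies at chr5:138976014-138997370 on the minus strand. It had the highest FPKM of the 10 genes as a mean over all libraries, 34.1, with a range of only 31.6 to 36.6. Its CPM was 85.9 and 81.1 in WT control, 90.6 and 99.2 in WT TGF-β, 86.3 and 82.3 in KO control and 101 and 92.5 in KO TGF-β. The TGF-β libraries stood slightly above the controls. The log2 fold change was 0.18 in WT (95% interval 0.02 to 0.35, adjusted p = 0.0838) and 0.20 in KO (0.03 to 0.37, adjusted p = 0.0729), and both intervals lay under the 0.6 limit.

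Pdgfb encodes the ligand by which endothelial cells recruit pericytes through Pdgfrb, and lies at chr15:79995874-80014977 on the minus strand. It was at 53.8 and 62.3 CPM in WT control and at 129 and 112 CPM in WT TGF-β. In KO astrocytes the levels were 54.2 and 70.8 CPM in control and 133 and 127 CPM with TGF-β. No control library came near a TGF-β library. On the log2 scale the change was 1.05 in WT (SE 0.13, adjusted p = 0.00113) and 1.06 in KO (SE 0.13, adjusted p = 0.00135).

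Pdgfc encodes a latent ligand, secreted with a CUB domain that the tissue plasminogen activator Plat removes, and lies at chr3:81036416-81214040 on the plus strand. Its CPM was 63.2 and 67.4 in WT control, 157 and 217 in WT TGF-β, 58.1 and 47.5 in KO control and 155 and 162 in KO TGF-β. Replicate 2 of WT TGF-β was the highest library and the other TGF-β libraries lay close together. Its log2 change came to 1.51 in WT (SE 0.15, adjusted p = 0.000478) and 1.58 in KO (SE 0.15, adjusted p = 0.000502).

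The stretch before the Pdgfc start, chr3:81036166-81036415 on the plus strand, is shown because it was the only one among the 7 genes' first windows with motifs of 2 kinds. Capitals mark CAGACA at position -242 and GGAATG at position -137.
Pdgfc: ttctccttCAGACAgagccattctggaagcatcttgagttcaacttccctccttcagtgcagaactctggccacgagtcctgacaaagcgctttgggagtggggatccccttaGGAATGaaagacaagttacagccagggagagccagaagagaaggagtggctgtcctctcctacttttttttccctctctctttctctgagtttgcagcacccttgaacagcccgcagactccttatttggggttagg
A second GGAATG lay after the start, at position 38 on the opposite strand. CAGACA was present in 3 of the 9 windows and in 21.0% of 32851 mouse windows, and GGAATG in 1 of 9 and in 14.7%. ACGTG was in 1 of 9 and 19.6%, TGACTCA in 0 and 5.20%, and GTCTAGAC in 0 and 0.213%. A match is only a match of letters, and whether any factor was bound there was not measured.

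Among the PDGF genes the order of levels changed as well. Pdgfa made up 46.7% to 53.0% of the summed FPKM of Pdgfa, Pdgfb and Pdgfc in controls and 30.1% to 33.1% with TGF-β, while Pdgfc went from 21.3% to 26.7% up to 35.3% to 43.6%. The sum itself was 65.6 to 67.7 FPKM in controls and 104 to 114 FPKM with TGF-β. With Pdgfd, a further ligand of Pdgfrb, added to the sum, Pdgfa held 36.3% to 43.4% in controls and 26.8% to 29.5% with TGF-β, Pdgfc 17.2% to 20.8% and 31.6% to 38.9%, and Pdgfd itself 18.1% to 22.2% and 10.6% to 11.0%. In WT TGF-β libraries Pdgfc was at 45.7 ± 5.58 FPKM, above Vegfa at 39.6 ± 0.261, Pdgfa at 34.1 ± 2.17 and Pdgfb at 31.2 ± 3.65 (SD, n = 2). In WT the distance from Pdgfa to Pdgfb was within their spread. The order was the same in KO TGF-β libraries, at 39.6 ± 1.09, 38.4 ± 3.77, 35.5 ± 1.48 and 34.1 ± 4.72 FPKM, where the values of neighbouring genes differed by less than the larger SD of the pair. In WT control libraries the highest were Pdgfa at 32.5 ± 1.20 and Angptl4 at 31.6 ± 5.20 FPKM, likewise within their spread, and Angptl2, Vegfc and Angpt4 were the lowest, at 4.72 ± 0.826, 3.37 ± 1.08 and 2.63 ± 1.32 FPKM.

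Angpt1 encodes the agonist of Tek that stabilizes vessels, and lies at chr15:42424723-42676977 on the minus strand. It was at 87.2 and 82.0 CPM in WT control, 55.8 and 80.1 CPM in WT TGF-β, 91.7 and 71.9 CPM in KO control and 59.5 and 65.7 CPM in KO TGF-β. The TGF-β libraries were the lower ones within each genotype, with WT TGF-β replicate 2 close to the controls. With TGF-β the log2 difference was -0.32 in WT (95% interval -0.71 to 0.07, adjusted p = 0.187) and -0.39 in KO (-0.78 to 0.01, adjusted p = 0.131), neither past the threshold. Without WT TGF-β replicate 2 the WT value was -0.62 (adjusted p = 0.0349, edgeR), which is past it.

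Angpt4 encodes a further angiopoietin that binds Tek, and lies at chr2:151911210-151945337 on the plus strand. It had 57 and 169 counts in WT control, 729 and 480 in WT TGF-β, 20 and 150 in KO control and 423 and 409 in KO TGF-β. As CPM these were 3.68 and 10.1, then 40.3 and 30.7, then 1.28 and 8.88, and last 28.3 and 27.0. As a ratio, the control replicates of Angpt4 differed from each other more than those of any other ligand gene described. Even so, the highest control, at 10.1 CPM, was well under the lowest TGF-β library, at 27.0 CPM. The log2 fold change was 2.35 in WT (SE 0.58, adjusted p = 0.0177) and 2.42 in KO (SE 0.61, adjusted p = 0.0220), with 95% intervals of the fold from 2.02 to 12.9 and from 2.01 to 14.3.

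On the FPKM values with a pseudocount of 0.1 the WT call of Angpt4 was lost. The size of the Angpt4 change was the least certain of the 10. It was 1.62 on the log2 scale without KO control replicate 1 and 4.43 without KO control replicate 2, and in WT 1.82 without control replicate 1 (adjusted p = 0.0659, edgeR) and 3.25 without control replicate 2. The call was also lost without WT TGF-β replicate 1 (adjusted p = 0.0694), without either KO TGF-β library (0.0746 and 0.0726 in KO), and in DESeq2, with an adjusted p of 0.0655 in WT and 0.0632 in KO.

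The stretch before the Angpt4 start is printed because this gene had the largest change, at chr2:151910957-151911206 on the plus strand.
Angpt4: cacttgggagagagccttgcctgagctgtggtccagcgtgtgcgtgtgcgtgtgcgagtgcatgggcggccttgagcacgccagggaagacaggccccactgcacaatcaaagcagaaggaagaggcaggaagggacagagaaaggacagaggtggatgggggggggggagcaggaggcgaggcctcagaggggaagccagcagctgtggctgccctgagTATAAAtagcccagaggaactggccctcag
It held none of the motifs listed above. Capitals mark a TATA box, TATAAA at position -30, which was searched for only after the sequence had been read. TATAAA on the same strand between 40 and 20 bases before the start occurred in 1 of the 9 ligand windows and in 1.91% of all 32851.

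Angpt4 went from a minor to a major angiopoietin transcript. It made up 2.73% to 17.6% of the summed FPKM of Angpt1 and Angpt4 in controls and 36.4% to 54.5% with TGF-β. Angpt2, the context-dependent antagonist of Tek that destabilizes vessels and no member of the 10, fell steeply. It was at 17.2 and 19.2 CPM in WT control, 3.48 and 1.60 CPM in WT TGF-β, 9.83 and 14.1 CPM in KO control and 3.35 and 1.52 CPM in KO TGF-β. The log2 fold change of Angpt2 was -2.81 in WT (SE 0.37, adjusted p = 0.00128) and -2.30 in KO (SE 0.39, adjusted p = 0.00451). Of the summed FPKM of the 3 angiopoietins, Angpt2 was 11.0% to 16.6% in controls and 1.44% to 3.31% with TGF-β.

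Angptl2 encodes a secreted angiopoietin-like glycoprotein that does not bind Tek and is known from inflamed tissue, and lies at chr2:33216069-33247717 on the plus strand. It was at 15.2 and 21.0 CPM in WT control, 34.8 and 32.9 CPM in WT TGF-β, 12.6 and 14.6 CPM in KO control and 31.2 and 26.6 CPM in KO TGF-β. The TGF-β libraries lay above all controls. On the log2 scale the change was 0.90 in WT (SE 0.15, adjusted p = 0.00400) and 1.09 in KO (SE 0.16, adjusted p = 0.00266). On log2(FPKM + 1) the WT value was 0.59, just short of the limit. A CAGACA match on the opposite strand spanned the start of the RefSeq window, which lies before the gene coordinates given above. It is shown in capitals in 30 bases of the plus strand at chr2:33215948-33215977.
Angptl2: gcggcccgccccTGTCTGgagctgagggga

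Angptl4 encodes a secreted inhibitor of lipoprotein lipase that is known as a target of PPAR and hypoxia signalling, and lies at chr17:33773750-33781830 on the minus strand. It was at 72.7 and 63.9 CPM in WT control, 49.1 and 50.6 CPM in WT TGF-β, 83.0 and 59.4 CPM in KO control and 64.7 and 51.0 CPM in KO TGF-β. The groups did not overlap in WT but did in KO. Its log2 change came to -0.45 in WT (95% interval -0.84 to -0.07, adjusted p = 0.0705) and -0.30 in KO (-0.68 to 0.08, adjusted p = 0.212), neither past the threshold. On the FPKM values the WT difference passed, at -0.68 with a pseudocount of 1 (adjusted p = 0.0232, limma), but that scaling also moved the median of all genes by -0.10.

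**Figure D3:**
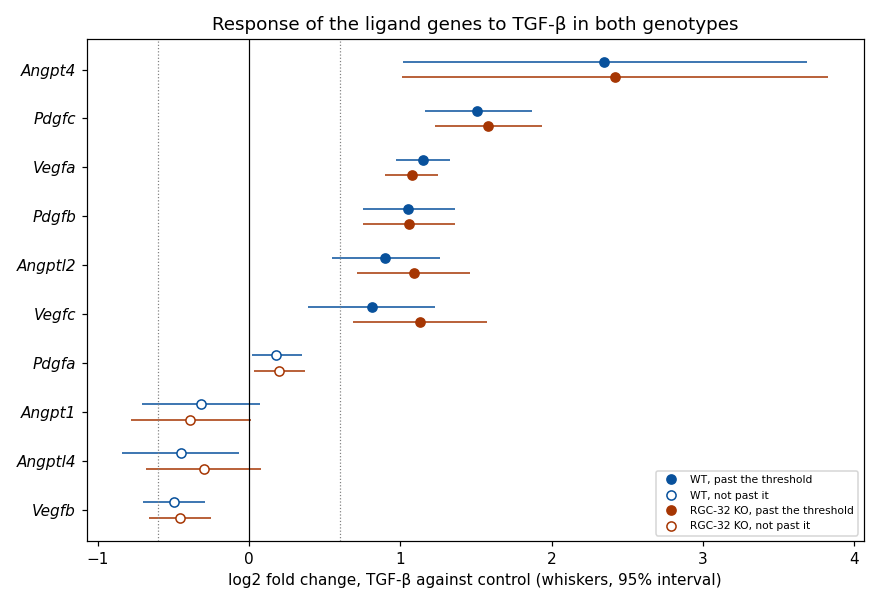
Log2 fold change of each ligand gene (x axis) for TGF-β against control in WT and KO astrocytes, with the 95% interval as whiskers, filled points past the threshold and dotted lines at the 0.6 limit in either direction. The 6 filled genes run from Vegfc, at 0.81 in WT, to Angpt4, at 2.35, whose intervals are the widest, and the points of the genotypes lie close together in each row.

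The next question was whether the lack of RGC-32 altered these genes. The genotype comparisons use the same libraries as the TGF-β comparisons, so they are not separate evidence. None of the 10 ligand genes passed the threshold between WT and KO in control libraries, where 0.0370% of all genes did, or in TGF-β libraries, where 0.0444% did. At an unadjusted p under 0.05, edgeR gave 1 ligand gene in controls and 0 with TGF-β, against 924 and 1576 of the 13509 genes tested. The 1 gene was Angptl2, higher in WT control by 0.41 on the log2 scale (SE 0.16, unadjusted p = 0.0372, adjusted p = 0.700), with both WT libraries above both KO libraries. DESeq2, limma-voom and the other alternatives also put 0 of the 10 past the threshold in either comparison.

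Most differences between genotypes were small and their intervals narrow for the abundant genes. Vegfa differed by -0.01 in control (95% interval -0.19 to 0.17) and by 0.06 with TGF-β (-0.11 to 0.24), as WT minus KO on the log2 scale. Pdgfa differed by -0.01 (-0.18 to 0.15) and -0.03 (-0.19 to 0.14), and Vegfb by -0.06 (-0.26 to 0.15) and -0.09 (-0.31 to 0.12). For these genes the intervals exclude a difference as large as the 0.6 limit. Pdgfc was higher in WT by 0.31 (-0.05 to 0.67) in control and 0.24 (-0.10 to 0.58) with TGF-β. Angpt4 could not be placed as tightly, at 0.43 (-1.17 to 2.02) and 0.36 (-0.81 to 1.53).

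The interaction of genotype and TGF-β, the difference between the WT and the KO response, was past the threshold for 0 of the 10 genes and for 0 of all genes tested. In edgeR 0 of the 10 had an unadjusted p under 0.05, against 381 of the 13509 genes tested. The other tools also put 0 of the 10 past the threshold. The values ran from -0.32 for Vegfc (95% interval -0.93 to 0.29) to 0.07 for Vegfa (-0.17 to 0.32) and for Angpt1 (-0.49 to 0.62). Pdgfb had nearly equal responses, with an interaction of -0.00 (-0.43 to 0.43), and that of Angpt4, -0.07, had an interval from -2.04 to 1.90.

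Receptors for these ligands were also measured. Of 12 listed receptors and co-receptors 11 were tested, and TGF-β raised 6 and lowered 1 in WT and raised 5 and lowered 2 in KO astrocytes. The median log2 fold change was 0.64 and 0.59, beside -0.00 and 0.00 over all genes. Pdgfrb, the receptor of Pdgfb, was at 120 and 127 CPM in WT control and 227 and 275 CPM in WT TGF-β, and at 110 and 102 against 189 and 204 CPM in KO. The change was 1.02 on the log2 scale in WT (SE 0.10, adjusted p = 0.000350) and 0.89 in KO (SE 0.10, adjusted p = 0.000730). Pdgfra, the receptor of Pdgfa and Pdgfc, fell by 0.98 in WT (SE 0.13, adjusted p = 0.00134) and by 0.71 in KO (SE 0.13, adjusted p = 0.00571).

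Among the VEGF receptors Flt1 and Flt4 were higher with TGF-β and Kdr was lower. Kdr had the highest level of the 3 in control libraries, with means of 3.88 FPKM in WT and 4.04 FPKM in KO, against 0.639 and 0.775 FPKM for Flt1 and 0.0678 and 0.0589 FPKM for Flt4. Flt1, which binds Vegfa and Vegfb, rose by 1.13 in WT (SE 0.19, adjusted p = 0.00372) from a mean of 5.48 CPM in control, and by 0.63 in KO (SE 0.19, adjusted p = 0.0390). Flt4, the receptor of Vegfc, rose by 1.31 (SE 0.29, adjusted p = 0.0117) and 1.04 (SE 0.30, adjusted p = 0.0356) but stayed at a mean of 1.55 CPM or less, and DESeq2 gave adjusted p values of 0.157 and 0.324. In edgeR the KO call of Flt4 was lost without any of the 8 libraries in turn, and the WT call without replicate 2 of WT control (adjusted p = 0.0684) or of WT TGF-β (0.0841). The KO rise of Flt1 was likewise lost in DESeq2 (adjusted p = 0.0783), with a replicate block (0.0618), with upper quartile normalization (0.0562) and without KO control replicate 1, at 0.40 (adjusted p = 0.177), either KO TGF-β library (0.147 and 0.132) or either WT TGF-β library (0.0544 and 0.0545). Kdr, the main signalling receptor of Vegfa, fell by 0.67 in KO (SE 0.16, adjusted p = 0.0198) and stood at -0.50 in WT, short of the limit (SE 0.16, adjusted p = 0.0488). The KO call of Kdr was lost without control replicate 2, at -0.40 (adjusted p = 0.0853, edgeR), and without either KO TGF-β library (0.0935 and 0.0802).

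The co-receptor Nrp1 had log2 fold changes of -0.02 in WT and 0.21 in KO, Nrp2 of -0.13 and -0.10, and Tek of -0.38 and -0.57, none past the threshold. Among the integrin subunits, which bind angiopoietins and angiopoietin-like proteins and many matrix proteins, Itgb3 rose by 2.11 in WT (SE 0.17, adjusted p = 0.000196) and 2.05 in KO (SE 0.17, adjusted p = 0.000280). Itgav rose by 0.90 and 0.81, and Itgb1 by 0.64 in WT, with 0.59 in KO, under the limit. The Itgb1 call in WT was lost with upper quartile normalization, at 0.55, without WT control replicate 1, at 0.57, and without WT TGF-β replicate 2, at 0.48.

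Other ligands of the same families went in both directions. Of 10 listed, 6 were tested, and 2 rose and 2 fell in each genotype, with medians of -0.24 and -0.16. Pgf, which binds Flt1, rose by 1.30 in WT (SE 0.21, adjusted p = 0.00306) and 1.44 in KO (SE 0.21, adjusted p = 0.00281), and Angptl7 by 1.33 and 0.97. Vegfd, a ligand of Flt4 like Vegfc, fell by 1.12 in WT (SE 0.18, adjusted p = 0.00298) and 1.01 in KO (SE 0.19, adjusted p = 0.00750), and Angpt2 is described above. The KO call of Vegfd was lost without KO TGF-β replicate 2, at -0.96 (adjusted p = 0.0526, edgeR).

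Several of these ligands need cleavage before they act. Of 10 proteases and cofactors, 2 rose and 1 fell in each genotype. Furin, a convertase that processes the precursors of PDGF and VEGF-C, rose by 0.89 in WT (SE 0.06, adjusted p = 0.000122) and 0.87 in KO (SE 0.06, adjusted p = 0.000146), and Pcsk6, a related convertase, by 0.98 and 0.93, a KO call lost without replicate 2 of KO control (adjusted p = 0.0571) or of KO TGF-β (0.0579). Ccbe1, the cofactor needed to mature VEGF-C, fell by 1.44 (SE 0.20, adjusted p = 0.00162) and 1.17 (SE 0.20, adjusted p = 0.00493). Plat, the activator of PDGF-C, was at a mean of 206 CPM in WT control and 190 CPM in WT TGF-β, with a log2 fold change of -0.12 (95% interval -0.57 to 0.33).

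Vegfa and Angptl4 are known targets of the hypoxia response, so its genes were set beside them. Of 12 genes, 1 rose and 3 fell in each genotype, with medians of -0.18 and -0.17. P4ha1, a collagen prolyl hydroxylase, rose by 0.66 and 0.69, though by 0.57 in WT with upper quartile normalization and 0.52 without WT TGF-β replicate 2, both under the limit. Egln3, a feedback inhibitor of the pathway, fell by 1.25 in WT (SE 0.07, adjusted p = 6.74e-05) and 0.82 in KO (SE 0.06, adjusted p = 0.000240), Ndrg1 by 0.94 and 0.85, and Adm, a vasodilator peptide gene, by 0.83 and 0.66. In KO the call of Adm was lost without control replicate 1, at -0.53, or TGF-β replicate 2, at -0.51. The glycolytic targets Slc2a1, Pgk1 and Ldha had WT values of 0.17, -0.02 and -0.14, none past the threshold.

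For Angptl4 the lipase axis was also read, of which 3 of 5 listed genes were tested, and 1 rose and 1 fell in each genotype. Lpl, the lipase that the Angptl4 protein inhibits, fell by 1.52 in WT (SE 0.31, adjusted p = 0.00772) and 1.44 in KO (SE 0.30, adjusted p = 0.0112), where the call was lost without control replicate 2 (adjusted p = 0.0681) or TGF-β replicate 1 (0.0695). Lipg, the endothelial lipase, rose by 1.25 (SE 0.33, adjusted p = 0.0240) and 1.20 (SE 0.34, adjusted p = 0.0333) from 3.45 CPM in WT control, and its KO call was lost with a replicate block (adjusted p = 0.0529). Without WT control replicate 2 the WT rise of Lipg was 0.81 (adjusted p = 0.116, edgeR), and it was also lost without WT TGF-β replicate 2 (0.127), as was the KO rise without either KO control library (0.0768 and 0.161) or KO TGF-β replicate 2 (0.198).

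**Figure D4:**
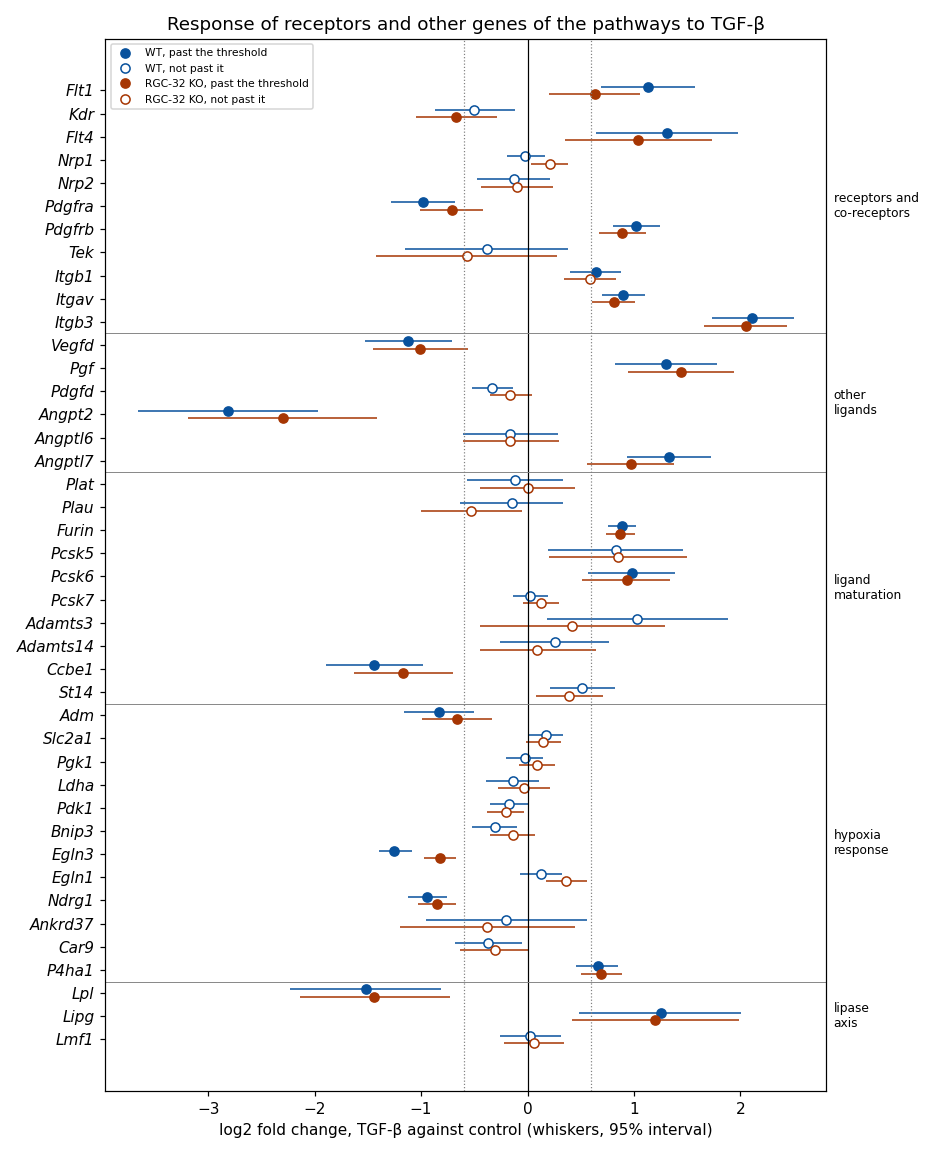
Log2 fold change (x axis) of the tested genes of 5 lists (receptors, other ligands, ligand maturation, hypoxia response and the lipase axis) for TGF-β against control in WT and KO astrocytes, with the 95% interval as whiskers, filled points past the threshold and dotted lines at the 0.6 limit. Angpt2, at -2.81 in WT, and Itgb3, at 2.11, are the extremes, and every list holds genes on both sides of 0.

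Markers of other cell types moved with TGF-β too. The summed level of 10 markers of meningeal or perivascular fibroblasts was 3396 to 5333 CPM in controls and 6474 to 9838 CPM with TGF-β, with most of the increase in the collagen genes Col1a1 and Col1a2, while Dcn, Lum and Foxc1 had lower means with TGF-β and Slc6a13 had 0 to 20 counts. Of the 9 fibroblast markers tested 4 rose and 2 fell in WT, and 4 rose and 1 fell in KO. The 4 of 8 mural cell markers with a row summed to 186 to 223 CPM and then to 452 to 711 CPM, with Pdgfrb itself among them. Cspg4, a surface proteoglycan that precursor cells of oligodendrocytes also carry, was at a mean of 32.0 CPM in WT control and 279 CPM in WT TGF-β. In each genotype 3 of the 4 rose past the threshold and Rgs5 did not. Its means were 3.94 CPM in WT control, 4.43 CPM in WT TGF-β, 4.71 CPM in KO control and 4.82 CPM in KO TGF-β. Of the other mural markers, read on the FPKM values alone, Kcnj8 had group means of 0.103 to 0.180 FPKM, Des of 0.00988 to 0.0705 FPKM and Higd1b of 0.00556 to 0.0435 FPKM, while Abcc9 was not analysed here. The 4 of 8 endothelial markers with a row summed to 86.6 to 112 CPM in controls and 51.5 to 63.3 CPM with TGF-β, most of it from Cdh5 and Kdr. Of these 4, 1 rose and 1 fell in WT, and 0 rose and 2 fell in KO. Esam, at a low level, had higher means with TGF-β, 1.23 against 0.405 CPM in WT and 0.697 against 0.339 CPM in KO. On the FPKM values, Cldn5 had group means of 0.00137 to 0.0105 FPKM, Emcn of 0.0165 to 0.0468 FPKM and Egfl7 of 1.10 to 1.38 FPKM, while Tie1 was not analysed here. Pecam1 had 11 to 27 counts in any library. Microglial markers summed to 1117 to 1375 CPM in controls and 993 to 1343 CPM with TGF-β, and 0 of the 10 passed the threshold in either genotype. The 10 astrocyte markers summed to 4396 to 5781 CPM and then to 3440 to 4555 CPM. The log2 fold change was negative for 9 of them in WT and 8 in KO, but only 2 and 1 fell past the threshold. Gja1 had higher means with TGF-β, 438 against 344 CPM in WT and 427 against 340 CPM in KO. The 5 of 6 ependymal markers with a row summed to 347 to 417 CPM in controls and 219 to 275 CPM with TGF-β, the 8 of 9 of the oligodendrocyte lineage to 368 to 388 CPM and then 459 to 619 CPM, and the 4 of 7 of neurons to 97.2 to 134 CPM and then 121 to 138 CPM. The remaining markers of these 3 lists, Tmem212, Mog, Rbfox3, Snap25 and Slc17a7, had group means of at most 0.793 FPKM. The rise in the oligodendrocyte sum came from Cspg4, which is on that list as well as on the mural list. Cnp, another marker of that list, had a mean of 138 CPM in WT control and 81.8 CPM in WT TGF-β. Of the 8 oligodendrocyte markers tested 1 rose and 1 fell in WT, and 2 rose and 1 fell in KO. The part of these shifts in the ligand results was not tested, and in bulk samples more cells of a type and more RNA per cell cannot be told apart.

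The genes whose log2 CPM followed each strongly induced ligand most closely over the 8 libraries are given as a description. Angpt4 was most like Il11, a cytokine of the interleukin-6 family, with a Pearson correlation of 0.995, and Il1rl1, the receptor of IL-33, with 0.988. Pdgfc was most like P4ha1 (0.999) and Fstl1, a secreted glycoprotein (0.998), Vegfa like Has2, a hyaluronan synthase (0.998), and Ifitm10 (0.998), and Pdgfb like the kinase gene Sgk1 (0.996) and the transcriptional repressor gene Bhlhe40 (0.995). The 8 points share the split into control and TGF-β libraries, and 333 genes had a correlation over 0.9 with Angpt4, 1855 with Pdgfc, 1716 with Vegfa and 984 with Pdgfb.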

How the data were processed

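RNA sequencing was done on total RNA of the 8 cultures. The submitters' processing notes name STAR, Cufflinks, DESeq and build mm10, without versions. The methods of the study describe unstranded reads aligned with STAR in the VIPER pipeline. The authors deposited whole-number counts per gene symbol, which were tested here, and FPKM values (ascribed to Cufflinks), used for levels between genes and for an alternative. Overlapping genes on opposite strands cannot be separated. The counting program is not given in the sources used here. Deposited columns of the authors' own comparisons (log2 fold changes, p-values and adjusted p-values) were not used.

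The tests were run with edgeR 4.0.16 under R 4.3.3: filterByExpr, TMM, and a quasi-likelihood fit of 4 group means to all 8 libraries, two-sided, with Benjamini-Hochberg adjustment over the 13509 genes tested. The SE was derived from the test statistic. DESeq2 1.42.0, limma 3.58.1 on log2 counts and on log2(FPKM + 1) or log2(FPKM + 0.1) with a mean FPKM of at least 0.1, other normalizations, filters and left-out libraries were alternatives. The procedure was tested on simulated data. CPM uses TMM-normalized totals, and the log2 CPM for correlations used a prior count of 2. Gene coordinates are from GENCODE release M21, matched by symbol.

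The members and lists were chosen with earlier results of these data known. Named are the 10 members, all receptors, list genes past the threshold in a TGF-β comparison (at most 6 a list), and for the 4 members with the largest change the 2 genes most correlated. Some others are named after their values were seen. A planned search of the protein sequences was not run. A planned list of PPAR targets is not reported here. Replicates of a group differed by more than counting noise (chi-square per degree of freedom 6.26 to 10.4). P-values rest on the spread between the 2 cultures of a group, pooled over the 4 groups and adjusted with that of other genes.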

Additional observations from a re-analysis of the deposited data

How the results depend on the processing

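The number of ligand genes past the threshold stayed within 1.5 times its main value, or the main count was 0 and stayed 0, in every alternative and every fit without a library. It was 4 to 7 of the 10 in WT, with 5 in DESeq2, 7 on FPKM and 4 without replicate 1 of WT control or of WT TGF-β, and 5 to 7 in RGC-32 KO. Of 990 values of single ligand genes, 19 lost or gained a call and 47 that were past no threshold changed sign, 13 of these by more than their SE. The cause was not tested. On FPKM the 7 ligand genes in WT held Vegfb and Angptl4 as lower genes. They lacked Angptl2 with a pseudocount of 1 and Angpt4 with a pseudocount of 0.1. Over all genes, FPKM with a pseudocount of 1 gave 519 higher and 586 lower genes in WT, in place of 1043 and 763, and 462 and 578 in RGC-32 KO, in place of 893 and 666. With a pseudocount of 0.1 there were 752 and 1250 in WT and 691 and 1231 in RGC-32 KO, and without a fold limit 2514 and 1936, and 2243 and 1592. Between the genotypes, higher and lower genes in WT numbered 7 and 6 in control and 22 and 12 with TGF-β in DESeq2, in place of 1 and 4, and 3 and 3. With the replicate numbers crossed they were 6 and 4, and 25 and 11, and with a replicate block 1 and 1, and 1 and 2. In limma-voom they were 1 and 2 with TGF-β, and in edgeR on the 4 libraries of a comparison 1 and 1 in control. In edgeR they ran down to 0 and 0 in control without either RGC-32 KO control library, and with TGF-β without replicate 2 of either TGF-β group.

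When 1 library at a time was left out, these log2 values changed sign by more than their SE, none of them past the threshold, and other values near 0 changed sign by less. With TGF-β in WT, Nrp1 ran from -0.13 to 0.08, Nrp2 from -0.34 to 0.08 and Tek from -0.79 to 0.18. In RGC-32 KO, Nrp2 ran from -0.29 to 0.05 and Rgcc from -0.68 to 0.83. For WT against RGC-32 KO in control, the ranges were -0.10 to 0.07 for Vegfa, -0.17 to 0.05 for Vegfb, -0.29 to 0.10 for Pdgfb, -0.49 to 2.44 for Angpt4 and -0.28 to 0.20 for Angptl4. With TGF-β they were -0.11 to 0.05 for Pdgfa, -0.02 to 0.46 for Pdgfc and -0.18 to 0.36 for Angpt1. The interaction ran from -0.32 to 0.16 for Pdgfc, -0.22 to 0.32 for Angpt1, -2.08 to 0.85 for Angpt4 and -0.40 to 0.08 for Angptl2.

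The groups share replicate numbers, but they were not taken to pair the samples. Deviations of same-numbered libraries correlated at -0.249 between the WT groups and -0.288 between the RGC-32 KO groups, and at 0.470 and 0.337 between the genotypes in control and in TGF-β libraries, over 10466 genes. Between WT control and RGC-32 KO TGF-β libraries the correlation was -0.450, and between WT TGF-β and RGC-32 KO control libraries -0.455. With a replicate block 6 ligand genes were called in each genotype, and 957 and 659 genes were higher and lower in WT and 814 and 555 in RGC-32 KO. The block ended the RGC-32 KO calls of Flt1, Flt4 and Lipg (adjusted p = 0.0618, 0.0827 and 0.0529, edgeR) and no other call of a gene named with TGF-β, and called 0 ligand genes between genotypes. With the numbers crossed, a setting chosen after seeing the data, the ligand counts were again 6 and 6, with 1167 and 938 genes in WT and 1040 and 812 in RGC-32 KO. With 2 libraries a group, a left-out library leaves a lone sample that is assumed to vary like the others.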
